A study of Mus musculus with 12 samples.

Results

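The genes of glycolysis, lactate exchange and pyruvate entry were followed through 33 named genes, of 23423 rows of a gene table, in 12 RNA libraries of newborn mouse heart cells. They were chosen by name to cover glucose transporters, every glycolytic step with its isoforms, lactate dehydrogenase subunits, lactate transporters, and the pyruvate dehydrogenase complex with its kinases. All 33 had a row in the table, and 32 passed a filter of a CPM (reads per 1000000 assigned reads) of at least 1 in at least 2 libraries. The exception was Eno1, an enolase gene, to which 1 to 15 reads were assigned per library. Gm5506, a retrotransposed enolase gene that was looked up after the values of Eno1 were seen, held 4491 to 27284 reads in the same libraries. How reads were divided between the copies was not tested, so Eno1 has no test here and the enolase step is described by Eno2 and Eno3.

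All cells came from CD1 mice at postnatal day 1.5, and each group had 2 libraries of polyadenylated RNA made with a stranded kit. In 4 groups cardiac fibroblasts were cultured and sampled on day 3 after transduction. The first received retrovirus carrying Mef2c, Gata4 and Tbx5 (MGT, the factors used to turn fibroblasts into induced cardiomyocytes) and lentivirus with a hairpin against Ptbp1 (MGT+shPtbp1). Another received MGT and lentivirus with a non-targeting hairpin (MGT+shNT), a further group MGT retrovirus alone (MGT), and the last a control retrovirus. That control virus is lacZ in the sample titles and an empty vector in other labels. The 2 uncultured groups were fresh cardiomyocytes, from a commercial neonatal cardiomyocyte isolation kit, and fresh fibroblasts, enriched by magnetic sorting for the surface protein Thy1. A single Ptbp1 hairpin is named, no selection of transduced cells is described, and the hairpin groups differ from the MGT group in carrying lentivirus. One MGT+shPtbp1 library carries a source label naming Ptbp2; its title and transduction label name Ptbp1, and its group was taken from those. The labels do not say whether the 2 libraries of a group came from separate animals or cultures, so the p-values measure only the spread between these libraries, which may be technical.

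Ptbp1 itself, the target of the hairpin, had 81.1 and 78.5 in MGT+shPtbp1 cells, 359.8 and 365 in MGT+shNT cells, 364 and 379.7 in MGT cells, 354 and 361 in control-vector cells, 419 and 421 in fresh cardiomyocytes, and 488 and 491 in fresh fibroblasts, in CPM divided by a library factor (scaled CPM). Both libraries labelled MGT+shPtbp1, the one with the discordant source label included, lay far below all 10 others, and the fall against MGT+shNT was -2.18 ± 0.034 on the log2 scale (limma adjusted p = 8.25e-19). Assigned reads per library ran from 49320858 to 94005212, and the library factors from 0.966 to 1.06. A set of 8 cardiomyocyte markers summed to 12601 to 13108 scaled CPM in fresh cardiomyocytes and 1388 to 1419 in fresh fibroblasts, and 8 fibroblast markers to 12800.2 to 12847 in fresh cardiomyocytes and 23900.3 to 24369 in fresh fibroblasts. Both fresh preparations thus contained RNA of both marker sets, and in these bulk libraries fewer cells of a type and less RNA per cell cannot be told apart.

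Glycolysis splits glucose into pyruvate in the cytosol. Lactate dehydrogenase turns pyruvate into lactate and back, proton-coupled transporters carry lactate across the plasma membrane, and pyruvate dehydrogenase, which its kinases switch off, feeds pyruvate to the citric acid cycle. Many steps have a muscle or heart form and a form common in proliferating or hypoxic cells, such as Ldhb against Ldha or Pgam2 against Pgam1. Fetal and newborn heart muscle is known for its use of glucose and lactate, which gives way to fatty acids as the heart matures. PTBP1, an RNA-binding protein that represses exons, is known for its part in choosing between the M1 and M2 forms of pyruvate kinase from the single gene Pkm. The values here are per gene and do not separate the Pkm isoforms.

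The 4 promoters below are those of the genes that make and move lactate, the transporters Slc16a3 (MCT4) and Slc16a1 (MCT1) and the dehydrogenase subunits Ldha and Ldhb. Each is the 250 bases before the RefSeq transcription start (GRCm38.p6), printed 5′ to 3′ on the strand of the gene, with every ACGTG or its reverse complement CACGT in capitals. ACGTG is a core of the element that hypoxia-inducible factors bind, and it overlaps the palindromic E-box CACGTG. Slc16a3 lies on the plus strand at chr11:120948817-120949066, Slc16a1 on the plus strand at chr3:104638414-104638663, Ldha on the plus strand at chr7:46845554-46845803 (the first of 2 listed starts) and Ldhb on the minus strand at chr6:142507958-142508207.
Slc16a3: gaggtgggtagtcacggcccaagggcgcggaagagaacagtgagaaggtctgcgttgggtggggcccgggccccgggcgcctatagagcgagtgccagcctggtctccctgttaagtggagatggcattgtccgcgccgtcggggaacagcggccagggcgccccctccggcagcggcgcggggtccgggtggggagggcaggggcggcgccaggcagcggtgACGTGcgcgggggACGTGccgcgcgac
Slc16a1: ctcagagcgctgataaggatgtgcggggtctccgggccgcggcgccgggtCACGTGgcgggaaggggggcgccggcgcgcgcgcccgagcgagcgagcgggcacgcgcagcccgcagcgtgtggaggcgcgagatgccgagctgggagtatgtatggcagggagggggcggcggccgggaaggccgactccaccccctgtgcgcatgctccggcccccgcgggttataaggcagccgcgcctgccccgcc
Ldha: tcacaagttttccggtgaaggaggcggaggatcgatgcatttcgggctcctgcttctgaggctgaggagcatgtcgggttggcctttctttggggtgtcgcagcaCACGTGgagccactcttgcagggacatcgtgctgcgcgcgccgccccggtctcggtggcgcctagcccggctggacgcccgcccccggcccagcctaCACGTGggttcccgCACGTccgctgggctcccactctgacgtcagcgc
Ldhb: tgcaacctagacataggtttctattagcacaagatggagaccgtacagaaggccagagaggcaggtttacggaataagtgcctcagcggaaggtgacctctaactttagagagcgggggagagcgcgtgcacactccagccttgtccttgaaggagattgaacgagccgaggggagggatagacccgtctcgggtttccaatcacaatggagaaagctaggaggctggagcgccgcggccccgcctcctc

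Slc16a3 held 2 ACGTG matches and Slc16a1 a single CACGTG box. Ldha held 2 CACGTG boxes and 1 further CACGT, and Ldhb held no match. Their G+C shares were 73.6% for Slc16a3, 76.4% for Slc16a1, 67.2% for Ldha and 56.4% for Ldhb. RefSeq listed 50 starts for 31 of the 33 genes. Of these starts, 38% held ACGTG on either strand, against 16.6% of all 32851 starts, and 12% held CACGTG, against 6.02%. The GATA-type motif AGATAA was in 12% of them, against 9.99% of all starts, and the T-box-type motif AGGTGT in 6%, against 11.8%, again on both strands. ACGTG was in 41.4% of the starts of members higher in control-vector cells than in fresh fibroblasts, and in 50% of the starts of those lower. The G+C share of all starts was not computed, so base composition and motif cannot be told apart in these shares. A match of letters is not a binding site, and neighbouring starts of a gene share sequence.

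**Figure D1:**
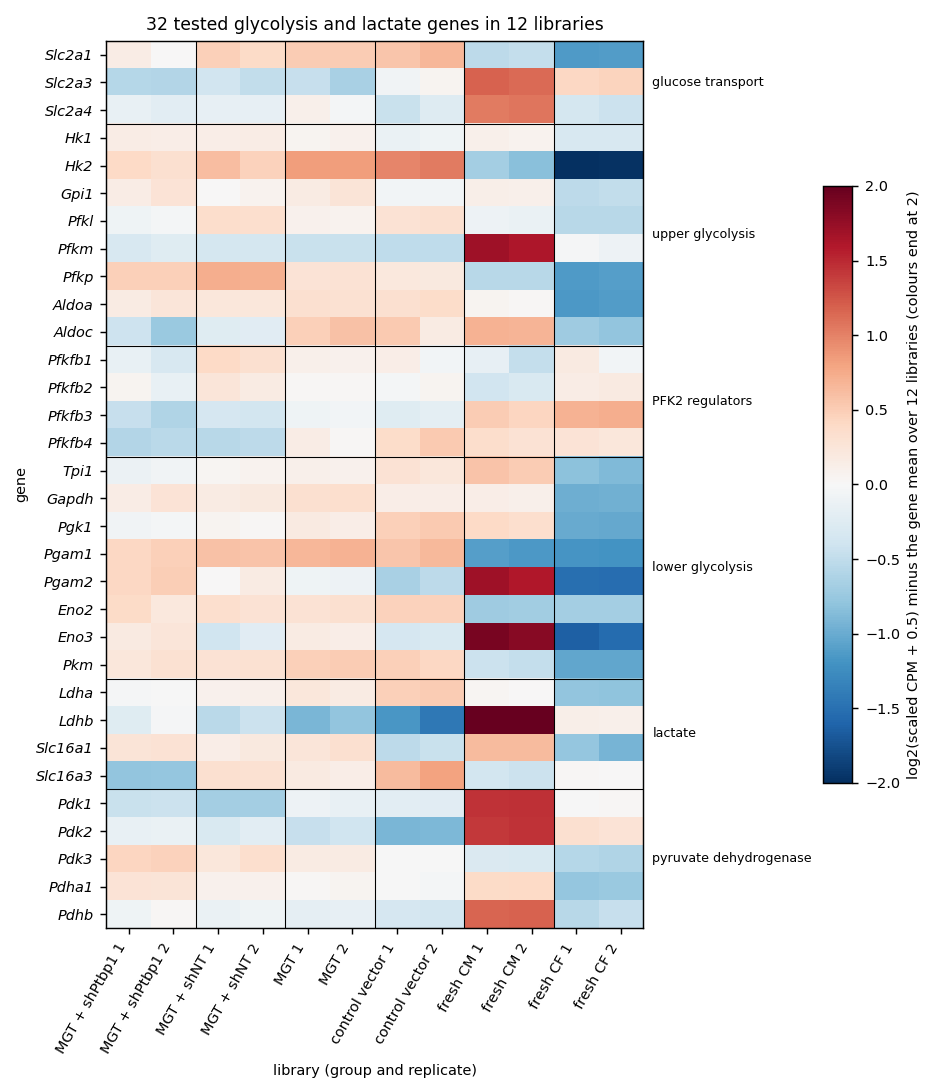
Colours give log2(scaled CPM + 0.5) minus the mean of the gene over all 12 libraries, for the 32 tested genes (rows, in order of the pathway) in each library (columns, by group and replicate); red is above and blue below the mean. Fresh cardiomyocytes stand apart in Ldhb, Eno3, Pgam2 and Pfkm, and fresh fibroblasts are the lowest group for 21 of the 32 genes, a count not made over all genes.

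Together the 33 genes took 0.611% and 0.641% of assigned reads in MGT+shPtbp1 cells, 0.628% and 0.638% in MGT+shNT cells, 0.678% and 0.675% in MGT cells, 0.668% and 0.658% in control-vector cells, 0.698% and 0.685% in fresh cardiomyocytes, and 0.337% and 0.337% in fresh fibroblasts. By group mean, 13 of the 32 tested genes were highest in fresh cardiomyocytes, 8 in control-vector cells, 5 in MGT+shNT cells, 3 in MGT cells, 2 in MGT+shPtbp1 cells and 1, Pfkfb3, in fresh fibroblasts. The heat map by library shows this split, with some isoforms at their peak in fresh cardiomyocytes and others in culture. The highest group was not counted over all genes, so the split cannot be called particular to these members. Per kilobase of exon union, Gapdh had the highest value of the members in each of the 6 groups. It stood at 359 scaled CPM per kilobase in MGT cells, its highest, and 146 in fresh fibroblasts, its lowest. The union can be longer than the transcript expressed, so an order of genes on this scale depends on it.

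Glucose enters these cells through facilitative transporters. Slc2a1, the widespread basal transporter GLUT1, had 62.1 and 56.3 in MGT+shPtbp1 cells, 78.1 and 73.1 in MGT+shNT cells, 79.7 and 79.8 in MGT cells, 82.0 and 88.7 in control-vector cells, 38.6 and 40.2 in fresh cardiomyocytes, and 25.3 and 25.4 in fresh fibroblasts, in scaled CPM as for every level below unless a length is named. All 8 cultured libraries exceeded all 4 fresh ones, and those of MGT+shPtbp1 cells were the lowest of the cultures. Slc2a4, the insulin-regulated transporter GLUT4 of muscle and fat, had 10.8 and 10.2 in MGT+shPtbp1 cells, 10.7 and 10.6 in MGT+shNT cells, 12.8 and 11.6 in MGT cells, 8.67 and 9.93 in control-vector cells, 25.0 and 25.7 in fresh cardiomyocytes, and 9.25 and 8.75 in fresh fibroblasts. It stood at its highest in fresh cardiomyocytes, where no other library overlapped it. Slc2a3, the high-affinity transporter GLUT3, had 5.82 and 5.82 in MGT+shPtbp1 cells, 6.71 and 6.19 in MGT+shNT cells, 6.34 and 5.54 in MGT cells, 8.47 and 9.27 in control-vector cells, 20.8 and 20.1 in fresh cardiomyocytes, and 12.1 and 12.3 in fresh fibroblasts, so that every cultured library lay below every fresh one. Even in fresh cardiomyocytes Slc2a1 was above Slc2a4 per kilobase, at 11.2 against 7.29 scaled CPM per kilobase.

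Hexokinases trap glucose as its phosphate. Hk1, the form of most tissues, had 163 and 162 in MGT+shPtbp1 cells, 162 and 163 in MGT+shNT cells, 153 and 156 in MGT cells, 135 and 139 in control-vector cells, 158 and 154 in fresh cardiomyocytes, and 118 and 118 in fresh fibroblasts, a narrow span in which fresh fibroblasts were lowest. Hk2, the form of insulin-responsive muscle that also rises in proliferating cells, had 79.3 and 74.9 in MGT+shPtbp1 cells, 92.2 and 82.9 in MGT+shNT cells, 107 and 107 in MGT cells, 119 and 124 in control-vector cells, 37.4 and 33.3 in fresh cardiomyocytes, and 14.7 and 14.9 in fresh fibroblasts. Its order ran from control-vector cells down through MGT, MGT+shNT and MGT+shPtbp1 cells to fresh cardiomyocytes and fresh fibroblasts, with no neighbouring groups overlapping. Gpi1, the isomerase that makes fructose phosphate, had group means between 519 in MGT+shPtbp1 cells and 315 in fresh fibroblasts.

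Phosphofructokinase, the committed step, has a muscle (Pfkm), a liver (Pfkl) and a platelet (Pfkp) subunit. Pfkm had 38.7 and 40.9 in MGT+shPtbp1 cells, 38.2 and 37.9 in MGT+shNT cells, 35.5 and 35.6 in MGT cells, 33.9 and 34.0 in control-vector cells, 159 and 151 in fresh cardiomyocytes, and 48.0 and 45.1 in fresh fibroblasts. Pfkl had 83.6 and 86.5 in MGT+shPtbp1 cells, 114 and 112 in MGT+shNT cells, 94.7 and 93.6 in MGT cells, 109 and 111 in control-vector cells, 82.4 and 81.2 in fresh cardiomyocytes, and 60.5 and 60.3 in fresh fibroblasts. Pfkp had 170.1 and 171 in MGT+shPtbp1 cells, 204 and 202 in MGT+shNT cells, 148 and 150.0 in MGT cells, 141 and 139.9 in control-vector cells, 83.3 and 83.1 in fresh cardiomyocytes, and 55.3 and 56.6 in fresh fibroblasts. Pfkm peaked in fresh cardiomyocytes and was lower in every culture than in either fresh preparation, whereas Pfkp was higher in every culture and peaked in MGT+shNT cells. Per kilobase, Pfkm stood at 46.3 in fresh cardiomyocytes, against 12.3 for Pfkl and 6.21 for Pfkp. In control-vector cells the values were 16.4 for Pfkl, 10.5 for Pfkp and 10.2 for Pfkm per kilobase. This order rests on the exon unions, of 13.4 kb for Pfkp, 6.68 kb for Pfkl and 3.34 kb for Pfkm. In scaled CPM Pfkp was highest there, at 140.6, against 109.7 for Pfkl and 33.9 for Pfkm.

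The 4 Pfkfb genes encode the enzymes that make and break fructose 2,6-bisphosphate, the activator of phosphofructokinase. Pfkfb3, the form with the strongest kinase activity, averaged 34.2 in MGT+shPtbp1 cells, 38.6 in MGT+shNT cells, 47.2 in MGT cells, 42.4 in control-vector cells, 68.8 in fresh cardiomyocytes and 81.6 in fresh fibroblasts. It was the one member that peaked in fresh fibroblasts. Pfkfb4, a form first described in testis, had 4.98 and 5.17 in MGT+shPtbp1 cells, 5.10 and 5.19 in MGT+shNT cells, 8.57 and 7.89 in MGT cells, 10.1 and 11.3 in control-vector cells, 9.93 and 9.53 in fresh cardiomyocytes, and 9.45 and 9.15 in fresh fibroblasts, and both hairpin groups were below all other libraries. Pfkfb1, the liver and muscle form, had 2.25 and 1.93 in MGT+shPtbp1 cells, 3.53 and 3.31 in MGT+shNT cells, 2.76 and 2.72 in MGT cells, 2.84 and 2.44 in control-vector cells, 2.23 and 1.70 in fresh cardiomyocytes, and 2.95 and 2.43 in fresh fibroblasts. At these low levels its fresh cardiomyocyte and fresh fibroblast libraries did not overlap but its control-vector and MGT libraries did. Pfkfb2, the heart form, averaged between 34.3 in MGT+shNT cells and 23.4 in fresh cardiomyocytes.

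Aldolase cuts the sugar in 2 trioses. Aldoa, the muscle and general form, had 743 and 779 in MGT+shPtbp1 cells, 772 and 773 in MGT+shNT cells, 829 and 821 in MGT cells, 827 and 858 in control-vector cells, 686 and 674 in fresh cardiomyocytes, and 299 and 305 in fresh fibroblasts. Fresh fibroblasts were lowest and the control-vector and MGT libraries overlapped at the top. Aldoc, the brain form, had 1.26 and 0.911 in MGT+shPtbp1 cells, 1.48 and 1.501 in MGT+shNT cells, 2.77 and 3.03 in MGT cells, 2.87 and 2.12 in control-vector cells, 3.30 and 3.26 in fresh cardiomyocytes, and 0.930 and 0.861 in fresh fibroblasts. Its MGT+shPtbp1 and MGT+shNT libraries lay below those of MGT and control-vector cells. Tpi1, which interconverts the trioses, averaged 245 in MGT+shPtbp1 cells, 273 in MGT+shNT cells, 279 in MGT cells, 312 in control-vector cells, 382 in fresh cardiomyocytes and 145 in fresh fibroblasts. Gapdh, the dehydrogenase often used as a reference gene, averaged 1294 to 1485 over the 4 cultured groups, 1288 ± 18.8 in fresh cardiomyocytes and 603 ± 2.37 in fresh fibroblasts (SD, n = 2 each). Pgk1, the first ATP-yielding enzyme, had 218 and 223 in MGT+shPtbp1 cells, 239.9 and 233 in MGT+shNT cells, 262 and 252 in MGT cells, 320.2 and 330.1 in control-vector cells, 304 and 292 in fresh cardiomyocytes, and 114 and 113 in fresh fibroblasts, with the control-vector libraries highest.

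The last steps before pyruvate also have paired forms. Pgam1, the general phosphoglycerate mutase, had 314 and 329 in MGT+shPtbp1 cells, 354 and 352 in MGT+shNT cells, 375 and 381 in MGT cells, 346 and 372 in control-vector cells, 109.8 and 106 in fresh cardiomyocytes, and 104 and 103 in fresh fibroblasts. Every cultured library lay above every fresh one, and the cardiomyocyte libraries were just above those of fresh fibroblasts. Pgam2, the muscle mutase, had 48.9 and 51.9 in MGT+shPtbp1 cells, 36.9 and 41.2 in MGT+shNT cells, 34.3 and 34.2 in MGT cells, 23.1 and 25.2 in control-vector cells, 119.8 and 111 in fresh cardiomyocytes, and 12.6 and 12.5 in fresh fibroblasts. Here the fresh cardiomyocytes were highest, and the cultures ran in order from MGT+shPtbp1 down to control vector, with no neighbours overlapping. Eno3, the muscle enolase, had 95.5 and 99.5 in MGT+shPtbp1 cells, 63.5 and 71.5 in MGT+shNT cells, 93.8 and 92.1 in MGT cells, 66.8 and 68.1 in control-vector cells, 315 and 299 in fresh cardiomyocytes, and 26.6 and 28.7 in fresh fibroblasts. The MGT+shPtbp1 libraries lay just above those of MGT cells, and the MGT+shNT libraries overlapped the control-vector ones. Eno2, the neuronal enolase, averaged 18.0 to 20.2 in the cultured groups, 8.68 in fresh cardiomyocytes and 8.86 in fresh fibroblasts. Pkm, pyruvate kinase, had 1158 and 1221 in MGT+shPtbp1 cells, 1215 and 1229 in MGT+shNT cells, 1378 and 1412 in MGT cells, 1388 and 1316 in control-vector cells, 738 and 717 in fresh cardiomyocytes, and 481 and 481 in fresh fibroblasts. The 8 cultured libraries exceeded the fresh ones, and the MGT+shPtbp1 and MGT+shNT libraries overlapped.

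Lactate dehydrogenase is a tetramer of Ldha subunits, which favour lactate formation, and Ldhb subunits, which favour lactate use. Ldha had 391 and 398 in MGT+shPtbp1 cells, 425 and 429 in MGT+shNT cells, 468 and 446 in MGT cells, 553 and 568 in control-vector cells, 411 and 400.3 in fresh cardiomyocytes, and 232 and 229 in fresh fibroblasts. Control-vector cells were highest and fresh fibroblasts lowest, with the cultures falling in order to MGT+shPtbp1 cells. Ldhb had 48.4 and 56.1 in MGT+shPtbp1 cells, 39.1 and 42.4 in MGT+shNT cells, 29.9 and 32.7 in MGT cells, 25.3 and 20.8 in control-vector cells, 370.1 and 353 in fresh cardiomyocytes, and 62.0 and 61.5 in fresh fibroblasts, an order that was reversed among the cultures and topped by fresh cardiomyocytes. The order of Ldhb and Ldha in fresh cardiomyocytes depended on whether the exon union, which can be longer than the transcript expressed, was divided out. Their means were 361.7 for Ldhb and 405.4 for Ldha in scaled CPM. Divided by their exon unions of 1.57 and 3.31 kb, they were 230.4 and 122 scaled CPM per kilobase. In control-vector cells Ldhb was at 14.7 and Ldha at 169 scaled CPM per kilobase.

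Lactate crosses the membrane through Slc16a1, which in heart muscle mainly takes lactate up, and Slc16a3, the main lactate exporter of glycolytic cells. Slc16a1 had 63.4 and 64.8 in MGT+shPtbp1 cells, 58.6 and 61.1 in MGT+shNT cells, 62.6 and 66.2 in MGT cells, 36.8 and 38.7 in control-vector cells, 82.6 and 82.2 in fresh cardiomyocytes, and 30.7 and 27.7 in fresh fibroblasts. The 6 libraries with MGT lay together, above the control-vector and fresh fibroblast libraries and below fresh cardiomyocytes. Slc16a3 had 12.3 and 12.4 in MGT+shPtbp1 cells, 27.2 and 26.9 in MGT+shNT cells, 24.6 and 23.8 in MGT cells, 34.0 and 38.2 in control-vector cells, 16.7 and 15.97 in fresh cardiomyocytes, and 22.2 and 21.9 in fresh fibroblasts. It was highest in control-vector cells, and the MGT+shPtbp1 libraries were the lowest of all 12. The promoters printed earlier hold 2 ACGTG matches for Slc16a3 and a CACGTG box for Slc16a1.

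At the pyruvate dehydrogenase complex, Pdha1 and Pdhb encode the 2 subunits of its first enzyme. Pdhb had 76.3 and 82.6 in MGT+shPtbp1 cells, 74.4 and 76.6 in MGT+shNT cells, 71.6 and 72.4 in MGT cells, 64.1 and 63.2 in control-vector cells, 183 and 185 in fresh cardiomyocytes, and 54.9 and 58.7 in fresh fibroblasts, and Pdha1 averaged 275 in MGT+shPtbp1 cells, 243 in MGT+shNT cells, 235 in MGT cells, 225 in control-vector cells, 299 in fresh cardiomyocytes and 135 in fresh fibroblasts. Both were highest in fresh cardiomyocytes. Of the kinases that inhibit the complex, Pdk1, a hypoxia-responsive one, had 17.0 and 17.2 in MGT+shPtbp1 cells, 14.3 and 14.3 in MGT+shNT cells, 21.8 and 20.8 in MGT cells, 20.1 and 19.8 in control-vector cells, 64.4 and 64.8 in fresh cardiomyocytes, and 23.2 and 23.7 in fresh fibroblasts. Pdk2, the most widely expressed kinase, had 22.5 and 22.8 in MGT+shPtbp1 cells, 20.2 and 21.6 in MGT+shNT cells, 18.2 and 19.0 in MGT cells, 13.1 and 13.3 in control-vector cells, 67.9 and 69.3 in fresh cardiomyocytes, and 31.5 and 30.6 in fresh fibroblasts. Fresh cardiomyocytes exceeded all other libraries for both, and the lowest group was MGT+shNT for Pdk1 and control vector for Pdk2. Pdk3, a further kinase of the family, averaged 35.7 in MGT+shPtbp1 cells, 31.9 in MGT+shNT cells, 29.5 in MGT cells, 26.0 in control-vector cells, 21.3 in fresh cardiomyocytes and 17.2 in fresh fibroblasts.

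**Figure D2:**
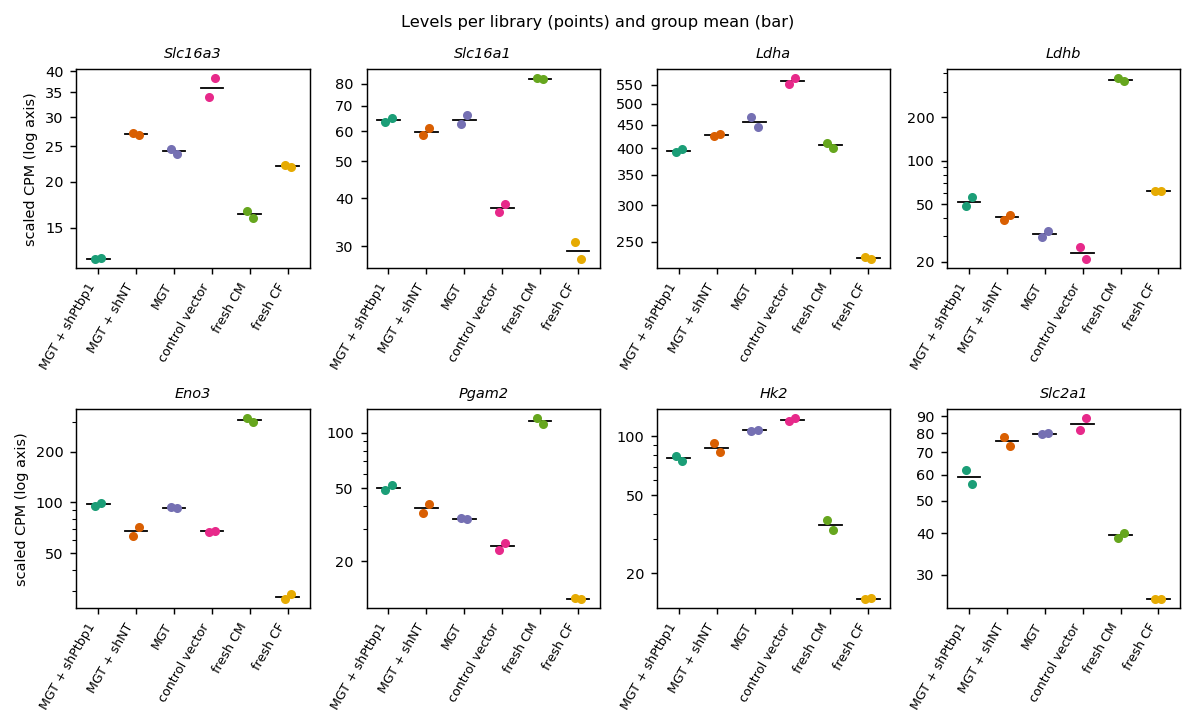
Points give the scaled CPM of each library on a logarithmic axis and bars the group mean, for 8 genes in the 6 groups. Slc16a3 is lowest in MGT+shPtbp1 cells, at 12.3 and 12.4, and Ldhb is highest in fresh cardiomyocytes, at 370.1 and 353.

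The first comparison asked how the 2 fresh cell preparations differ. Fresh cardiomyocytes had more RNA for most of the pathway than fresh fibroblasts: 25 of the 32 tested genes were higher, where 35.2% of all 13977 genes tested were, and 4 were lower, where 41.7% of all genes were (limma, adjusted p under 0.05, as in every count below). At least 2-fold higher were 16 members, against 8.26% of all genes. The median log2 fold change was 0.95 over the members and -0.05 over all genes. Eno3 differed most, at 3.45 ± 0.050 on the log2 scale (10.9-fold, adjusted p = 2.33e-20). Pgam2 followed at 3.16 ± 0.058 (8.91-fold, adjusted p = 4.1e-19), and Ldhb at 2.54 ± 0.074 (5.82-fold, adjusted p = 3.74e-16). The general partners of these genes differed less, with Pgam1 at 0.064 ± 0.037, not past the threshold (adjusted p = 0.126), and Ldha at 0.81 ± 0.035 (adjusted p = 1.19e-13).

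Transport and the upper steps were higher in fresh cardiomyocytes too. The log2 differences were 1.45 for Slc2a4, 0.72 for Slc2a3 and 0.62 for Slc2a1, and 1.23 for Hk2 against 0.40 for Hk1. Among the phosphofructokinases, Pfkm rose by 1.72, Pfkp by 0.57 and Pfkl by 0.43. Aldoa, Aldoc, Tpi1, Pgk1 and Gapdh were higher by 1.09 to 1.44, Gpi1 by 0.61 and Pkm by 0.60. At the pyruvate dehydrogenase step the differences were 1.69 for Pdhb, 1.44 for Pdk1, 1.15 for Pdha1, 1.13 for Pdk2 and 0.30 for Pdk3, and Slc16a1 was higher by 1.48. The 4 lower members were Pfkfb2 (-0.50), Slc16a3 (-0.42), Pfkfb1 (-0.37) and Pfkfb3 (-0.25). Pfkfb4 (0.061) and Eno2 (-0.028) did not pass the threshold. The Pfkfb1 call was lost without fresh cardiomyocyte replicate 2 or fresh fibroblast replicate 1, where its adjusted p reached 0.183.

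Other cells moved with this comparison. The sum of 8 endothelial markers was 4120.2 to 4126 in fresh cardiomyocytes and 3175 to 3225 in fresh fibroblasts, with 6 of the 8 higher. Of 6 erythroid markers the 3 tested were all higher in the cardiomyocyte preparation, with a sum over the list of 34.2 to 34.7 in fresh cardiomyocytes and 4.88 to 5.08 in fresh fibroblasts. Macrophage markers summed to 611 to 622 in fresh cardiomyocytes and 824 to 827 in fresh fibroblasts, with 2 of 8 higher and 5 lower. The 6 pericyte and smooth muscle markers summed to 634 in both fresh cardiomyocyte libraries and 1329 to 1342 in fresh fibroblasts, with 6 of 6 lower. Of the lymphocyte markers 4 of 5 tested were higher and 1 lower, and of the epicardial markers 4 of 6 were higher and 1 lower. Their part in the differences of the glycolytic genes was not tested.

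The second comparison set the control-vector cultures at day 3 against fresh fibroblasts, so that time in culture, the medium and the control virus cannot be told apart. Glycolytic RNA was broadly more abundant in culture: 23 of 32 members were higher, where 43.5% of all genes were, and 7 lower, where 43.4% were. The median log2 fold change was 0.72 over the members and 0.00 over all genes. Hk2 rose most, by 2.99 ± 0.054 (7.96-fold, adjusted p = 5.01e-20). It was followed by Pgam1 at 1.79 ± 0.037 (adjusted p = 4.54e-19), Slc2a1 at 1.73 ± 0.051 (adjusted p = 8.35e-17) and Pgk1 at 1.51 ± 0.035 (adjusted p = 2.39e-18). Pkm was 2.81-fold, Aldoa 2.79-fold and Ldha 2.43-fold higher in the control-vector cells.

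Ldhb and Pfkm went against their partners in this comparison. Ldhb was 2.66-fold lower in control-vector cells (log2 -1.41 ± 0.074, adjusted p = 8.83e-13), and Pfkm fell by 0.45 on the log2 scale, while Pfkl (0.86) and Pfkp (1.32) rose. Hk1 rose by only 0.21, and Slc2a4 did not pass the threshold (0.042, adjusted p = 0.613; -0.063 without the library factors and -0.051 without control replicate 2). Of the regulators of pyruvate dehydrogenase, Pdk2 (-1.20) and Pdk1 (-0.23) were lower, while Pdk3 (0.58), Pdha1 (0.74) and Pdhb (0.16) were higher. Eno3, Eno2, Tpi1, Gapdh, Aldoc and Pgam2 were higher by 0.92 to 1.27, Slc16a3 by 0.70, Gpi1 by 0.45, Slc16a1 by 0.36 and Pfkfb4 by 0.19. Pfkfb3 (-0.94), Slc2a3 (-0.44) and Pfkfb2 (-0.15) were lower, and Pfkfb1 did not pass the threshold (-0.019).

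Markers of other cells differed as well. Cardiomyocyte markers summed to 2733 to 2928 in control-vector cells and 1388 to 1419 in fresh fibroblasts, with 3 of 8 higher, among them Myl7 (3.77) and Tnnt2 (3.63), and 5 lower, among them Pln (-5.24) and Myh6 (-3.78). Fibroblast markers summed to 17859 to 20050.3 in control-vector cells and 23900.3 to 24369 in fresh fibroblasts, with 3 of 8 higher and 3 lower. Endothelial markers summed to 122 to 127 in control-vector cells and 3175 to 3225 in fresh fibroblasts, with 8 of 8 lower, and pericyte and smooth muscle markers to 229 to 273 in control-vector cells and 1329 to 1342 in fresh fibroblasts, with 1 of 6 higher and 5 lower. Macrophage markers summed to 3157 to 3369.9 in control-vector cells and 824 to 827 in fresh fibroblasts, with 6 of 8 higher and 1 lower, led by Lyz2 at a log2 fold change of 3.72. Of the lymphocyte markers 4 of 5 tested were lower, and of the epicardial markers 2 of 6 were higher and 4 lower. The part of these cells in the metabolic differences was not tested. Pfkfb4 and Pfkfb2 lost their calls under several settings, among them the removal of either fresh fibroblast library, and Pdhb without the library factors (adjusted p = 0.256).

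**Figure D3:**
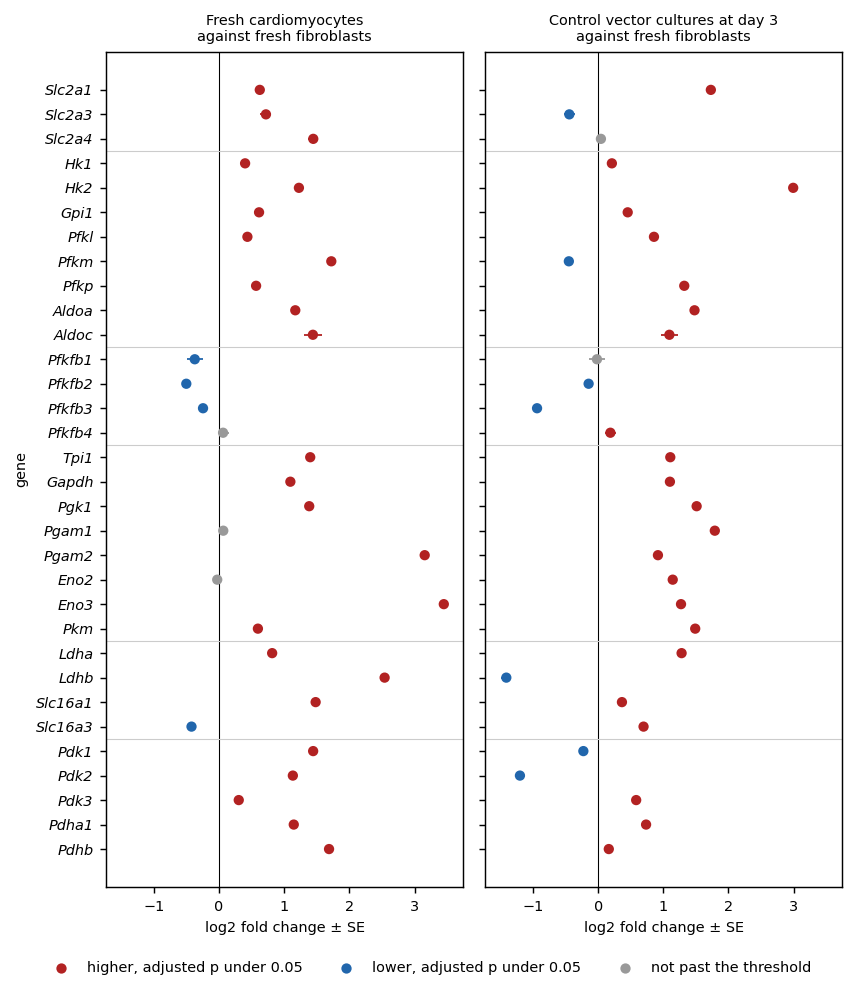
Points give the log2 fold change of each tested gene with its standard error, for fresh cardiomyocytes against fresh fibroblasts (left) and control-vector cultures at day 3 against fresh fibroblasts (right); both panels share the fresh fibroblast libraries and the x axis. Ldhb lies at 2.54 on the left and -1.41 on the right, and Hk2 at 1.23 and 2.99.

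The third comparison asked what the reprogramming factors changed by day 3. MGT cells had more Slc16a1, Pgam2, Pdk2, Eno3 and Ldhb than control-vector cells, and less Slc16a3, Slc2a3, Pgk1 and Ldha. In counts, 12 of 32 members were higher, where 17.9% of all genes were, and 8 lower, where 17.7% were. None changed at least 2-fold, against 0.773% of all genes higher and 0.107% lower by that much. The median log2 fold change was 0.07 over the members and -0.01 over all genes. The lactate transporters moved furthest, Slc16a1 with a log2 fold change of 0.76 ± 0.049 (1.70-fold higher, adjusted p = 9.14e-10) and Slc16a3 with one of -0.56 ± 0.060 (1.48-fold lower, adjusted p = 6.6e-07).

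Pgam2 was higher by 0.50 ± 0.058 (adjusted p = 1.95e-06), Pdk2 by 0.48 ± 0.053 (adjusted p = 1.13e-06), Eno3 by 0.46 ± 0.050 (adjusted p = 9.39e-07), Ldhb by 0.44 ± 0.074 (adjusted p = 0.000129) and Slc2a4 by 0.38 ± 0.078 (adjusted p = 0.000841). All 5 were also higher in fresh cardiomyocytes than in fresh fibroblasts, as were 25 of the 32 members. Smaller rises were those of Gpi1 (0.26), Gapdh (0.20), Hk1 (0.18), Pdhb (0.18), Pdk3 (0.18) and Pfkfb3 (0.15). Lower were Slc2a3 at -0.54 ± 0.084 (adjusted p = 5.08e-05) and Ldha at -0.29 ± 0.035 (adjusted p = 2.54e-06), with Pfkfb4 (-0.36), Pgk1 (-0.34), Pfkl (-0.22), Hk2 (-0.18) and Tpi1 (-0.16). The 12 members that did not pass the threshold included Pkm (0.046 ± 0.041, adjusted p = 0.415; -0.088 with quantile normalization), Slc2a1 (-0.095 ± 0.051, adjusted p = 0.157) and Pfkm (0.064 ± 0.045, adjusted p = 0.281). The others were Pfkp, Aldoa, Aldoc, Pgam1, Eno2, Pfkfb1, Pfkfb2, Pdk1 and Pdha1, between -0.16 (Eno2) and 0.19 (Aldoc).

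This comparison shares no library with that of the fresh cells, and 19 members were called in both, of the 20 called here and the 29 called there. The direction was the same for 12 of the 19 (63.2%), against 43.9% of the 4053 genes called in both over the whole table. Of the 12 members higher with MGT, 11 were higher in fresh cardiomyocytes, and of the 8 lower with MGT, 6 were, where 25 of all 32 members were. Over the whole table these counts were 830 of 2497 genes higher with MGT and 1052 of 2475 lower. Beside these values, 7 of 8 cardiomyocyte markers were higher with MGT, at sums of 3998 to 4167 in MGT cells and 2733 to 2928 in control-vector cells, and 6 of 8 endothelial markers were lower, at 85.4 to 93.2 in MGT cells and 122 to 127 in control-vector cells. Macrophage markers stood at 3356 to 3455 in MGT cells and 3157 to 3369.9 in control-vector cells, with 1 of 8 higher and 3 lower. Fibroblast markers summed to 14826 to 14962 in MGT cells and 17859 to 20050.3 in control-vector cells, with 1 of 8 higher and 6 lower, and of the epicardial markers 1 of 6 was higher and 3 lower. Of the pericyte and smooth muscle markers 2 of 6 were higher and 1 lower, and of the lymphocyte markers 1 of 5 tested was higher. Their part in the result was not tested. The calls of Hk2, Pdk3 and Pfkfb3 were lost in some settings, all 3 without MGT replicate 2. The highest adjusted p over the settings was 0.0914 for Hk2, 0.0583 for Pdk3 and 0.141 for Pfkfb3.

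The fourth comparison asked what the hairpin against Ptbp1 changed on top of MGT. The largest change among the members was in the lactate exporter: Slc16a3 was 2.14-fold lower in MGT+shPtbp1 than in MGT+shNT cells (log2 -1.10 ± 0.060, adjusted p = 1.28e-10). It was the one member past 2-fold, against 0.229% of all genes lower and 0.422% higher by that much. Eno3 (0.53 ± 0.050, adjusted p = 1.7e-07), Pgam2 (0.37 ± 0.058, adjusted p = 6.81e-05) and Ldhb (0.35 ± 0.074, adjusted p = 0.00112), the muscle or heart forms of their steps, were higher. Other members described here as muscle or heart forms were not. Pfkm (0.063, adjusted p = 0.297), Slc2a4 and Aldoa were below the threshold, and Hk2, Pfkfb2 and Pfkfb1 were lower. Pfkfb1 (-0.60 ± 0.13, adjusted p = 0.00113), Pfkl (-0.41 ± 0.035, adjusted p = 4.37e-08) and Slc2a1 (-0.35 ± 0.051, adjusted p = 2.67e-05) were lower. In all, 7 of 32 members were higher, where 16.7% of all genes were, and 12 lower, where 18.1% were, with medians of -0.02 over the members and 0.00 over all genes.

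Pkm averaged 1189 ± 44.4 in MGT+shPtbp1 cells and 1222 ± 9.55 in MGT+shNT cells (SD, n = 2 each), a log2 difference of -0.040 ± 0.041 that did not pass the threshold (adjusted p = 0.492). Hk1 (-0.0034, adjusted p = 0.954; 0.014 with quantile normalization) and Slc2a4 (-0.018, adjusted p = 0.896) also did not pass. Smaller calls were Pdk1 (0.25), Pdha1 (0.18), Gpi1 (0.17) and Pdk3 (0.16), which were higher, and Pfkfb2 (-0.25), Pfkp (-0.25), Hk2 (-0.18), Pfkfb3 (-0.17), Tpi1 (-0.15), Pgam1 (-0.13), Ldha (-0.11) and Pgk1 (-0.10), which were lower. Without MGT+shNT replicate 1 the count of lower members dropped to 6, and that of lower genes over the whole table from 2531 to 1687. Over the settings 8 of the 19 calls were lost at least once: Gpi1, Hk2, Ldha, Pdk3, Pfkfb2, Pfkfb3, Pgam1 and Pgk1. Slc16a3, Eno3, Pgam2, Ldhb, Pfkl, Pfkp, Slc2a1, Tpi1, Pdk1 and Pdha1 passed under every setting. With MGT cells as the reference in place of MGT+shNT cells, however, Pfkp and Pdk1 were called in the opposite direction, as given below. Pfkfb1 passed wherever it was tested, but its low level kept it out of the setting with a filter at 5 CPM.

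The Ptbp1 comparison and that of MGT with the control vector have no library in common. Of the 19 and the 20 members called in them, 12 were called in both, and 11 of the 12 had the same direction (91.7%), against 61.2% of 2182 genes over the whole table. Higher in both were Eno3, Pgam2, Ldhb, Gpi1 and Pdk3, lower in both were Slc16a3, Pfkl, Hk2, Tpi1, Ldha and Pgk1, and the exception was Pfkfb3 (-0.17 with shPtbp1 and 0.15 with MGT). The shPtbp1 calls of Gpi1, Pdk3, Hk2, Ldha, Pgk1 and Pfkfb3 and the MGT calls of Hk2, Pdk3 and Pfkfb3 were among those lost in some settings. Eno3 and Gpi1 did not pass the threshold in MGT+shPtbp1 against MGT cells. Against the fresh cells, 18 of the 19 members called here were among the 29 called there, 11 of the 18 in the same direction (61.1%), against 56.8% of 3969 genes. All 7 members that were higher with shPtbp1 were higher in fresh cardiomyocytes, and so were 7 of the 12 that were lower, where 25 of all 32 members were. Over the whole table these counts were 968 of 2339 genes higher with shPtbp1 and 773 of 2531 lower. Cardiomyocyte markers were higher with shPtbp1 for 6 of 8, at sums of 4691 to 5056 in MGT+shPtbp1 cells and 3908 to 4199.9 in MGT+shNT cells. Of the fibroblast and of the endothelial markers 3 of 8 were higher and 1 lower, of the pericyte and smooth muscle markers 4 of 6 higher and 1 lower, and of the epicardial markers 1 of 6 higher and 3 lower. Of the lymphocyte markers 1 of 5 tested was higher. The part of these cells in the result was not tested.

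**Figure D4:**
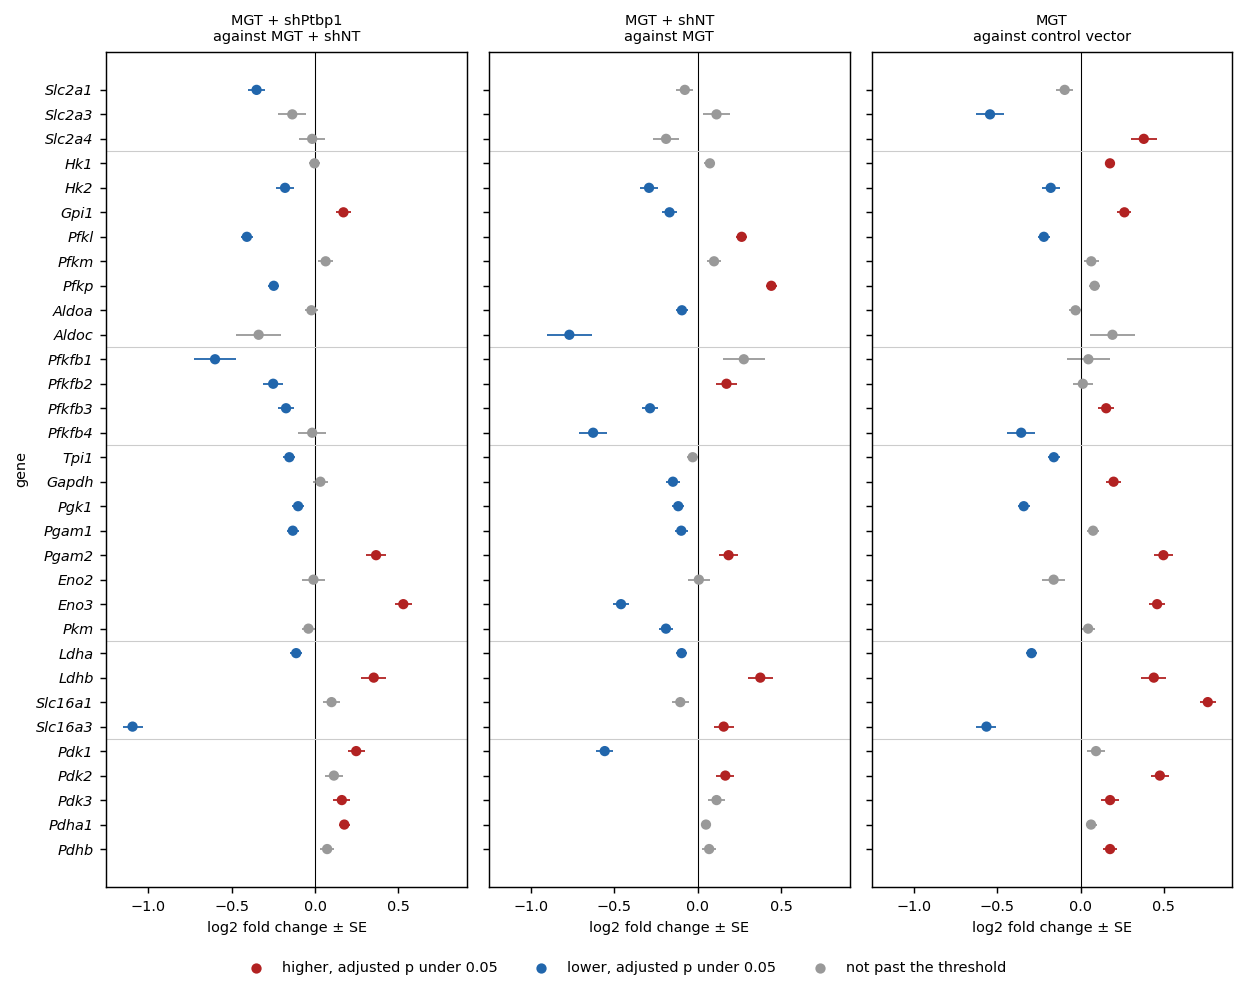
Points give the log2 fold change of each tested gene with its standard error on a shared axis, for MGT+shPtbp1 against MGT+shNT (left), MGT+shNT against MGT (middle, which shares libraries with both others) and MGT against control vector (right). Slc16a3 lies at -1.10 on the left, 0.16 in the middle and -0.56 on the right.

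A further comparison set MGT+shNT cells against MGT cells. The MGT cells carried no lentivirus, so the non-targeting hairpin and the lentivirus cannot be told apart in it. Against MGT cells, MGT+shNT cells had 7 of 32 members higher, where 24.6% of all genes were, and 13 lower, where 20.1% were, with medians of -0.05 over the members and 0.02 over all genes. Aldoc (-0.77 ± 0.13, adjusted p = 0.000107), Pfkfb4 (-0.63 ± 0.084, adjusted p = 5.58e-06), Pdk1 (-0.56 ± 0.052, adjusted p = 4.37e-08) and Eno3 (-0.46 ± 0.050, adjusted p = 4.18e-07) were lower. Pfkp (0.44 ± 0.032, adjusted p = 1.69e-09) and Ldhb (0.38 ± 0.074, adjusted p = 0.000412) were higher, as were Pfkl (0.26), Pgam2 (0.18), Pfkfb2 (0.17), Pdk2 (0.17) and Slc16a3 (0.16). Pkm (-0.19), Hk2 (-0.29) and Pfkfb3 (-0.29) were lower, as were Gpi1, Gapdh, Pgk1, Pgam1, Ldha and Aldoa, between -0.17 (Gpi1) and -0.10 (Aldoa). Only 10 of these 20 calls held in every setting that tested the gene. The count of higher members was 3 without MGT replicate 1, 4 without MGT replicate 2 and 4 without MGT+shNT replicate 2. That of lower members was 8 without MGT+shNT replicate 1. Calls over all genes fell too, from 6241 to between 4833 and 5108 with a library left out.

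Set against MGT cells directly, MGT+shPtbp1 cells had 8 members higher, where 24.3% of all genes were, and 17 lower, where 20.0% were, with medians of -0.12 over the members and 0.02 over all genes. Aldoc fell by 1.11 on the log2 scale, the one member past 2-fold, against 3.31% of all genes, with means of 1.08 in MGT+shPtbp1 cells and 2.90 in MGT cells. Slc16a3 stood at -0.94, Ldhb at 0.73, Pfkfb4 at -0.65, Pgam2 at 0.55 and Hk2 at -0.47 in this comparison. Eno3 (0.069, adjusted p = 0.292), Gpi1 (0.00055, adjusted p = 0.996) and Slc16a1 (-0.0062, adjusted p = 0.938) did not pass the threshold against MGT, although Eno3 and Gpi1 did against MGT+shNT. Pfkp (0.19, adjusted p = 8.38e-05) was higher and Pdk1 (-0.31, adjusted p = 6.96e-05) lower against MGT, opposite to their calls against MGT+shNT. Pkm (-0.23), Ldha (-0.21) and Slc2a1 (-0.43) were lower. These 3 hairpin comparisons share libraries in pairs.

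Markers of several cell types differed between the hairpin groups and MGT. The sum of the macrophage markers was 1451 to 1499 in MGT+shPtbp1 cells, 1263 to 1311 in MGT+shNT cells and 3356 to 3455 in MGT cells, with 8 of 8 lower in each hairpin group than in MGT. Between the hairpin groups 1 of 8 was higher and 5 lower with shPtbp1. Endothelial markers summed to 112 to 117 in MGT+shPtbp1 cells, 105 to 111 in MGT+shNT cells and 85.4 to 93.2 in MGT cells, with 6 of 8 higher and 1 lower in each hairpin group than in MGT. Of the fibroblast markers 5 of 8 were higher in MGT+shPtbp1 and 4 in MGT+shNT than in MGT cells, and none lower in either. Of the cardiomyocyte markers 4 of 8 were higher and 2 lower in MGT+shPtbp1 cells, and 2 higher and 3 lower in MGT+shNT cells. Hk3, a hexokinase best known from white blood cells and no member of the list, stood at 25.9 in MGT+shPtbp1 cells, 40.6 in MGT+shNT cells, 104 in MGT cells and 112 in control-vector cells. The part of these cells in the hairpin comparisons was not tested.

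Ratios within a library show the balance of paired forms without the library factor. The ratio of Ldhb to Ldha in scaled CPM was 0.124 and 0.141 in MGT+shPtbp1 cells, 0.0920 and 0.0989 in MGT+shNT cells, 0.0639 and 0.0734 in MGT cells, 0.0457 and 0.0367 in control-vector cells, 0.901 and 0.883 in fresh cardiomyocytes and 0.268 and 0.269 in fresh fibroblasts. The 6 groups did not overlap, and all 4 cultures lay below fresh fibroblasts. For Pgam2 to Pgam1 the values were 0.156 and 0.158 in MGT+shPtbp1 cells, 0.104 and 0.117 in MGT+shNT cells, 0.0913 and 0.0898 in MGT cells, 0.0667 and 0.0677 in control-vector cells, 1.09 and 1.05 in fresh cardiomyocytes and 0.122 and 0.121 in fresh fibroblasts. Slc16a3 to Slc16a1 gave 0.194 and 0.192 in MGT+shPtbp1 cells, 0.464 and 0.440 in MGT+shNT cells, 0.393 and 0.360 in MGT cells, 0.924 and 0.988 in control-vector cells, 0.202 and 0.194 in fresh cardiomyocytes and 0.722 and 0.790 in fresh fibroblasts. The MGT+shPtbp1 ratios lay beside those of fresh cardiomyocytes, below all other cultures. The log2 difference was -1.35 for MGT minus control vector and -1.23 for MGT+shPtbp1 minus MGT+shNT.

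Hk2 to Hk1 was lowest among the cultures in MGT+shPtbp1 cells and highest in control-vector cells, with 0.487 and 0.464 in MGT+shPtbp1 cells, 0.569 and 0.508 in MGT+shNT cells, 0.700 and 0.687 in MGT cells and 0.884 and 0.892 in control-vector cells, against 0.237 and 0.216 in fresh cardiomyocytes and 0.124 and 0.126 in fresh fibroblasts. Pfkm to Pfkl was 0.463 and 0.472 in MGT+shPtbp1 cells, 0.335 and 0.337 in MGT+shNT cells, 0.375 and 0.380 in MGT cells, 0.312 and 0.307 in control-vector cells, 1.93 and 1.86 in fresh cardiomyocytes and 0.794 and 0.749 in fresh fibroblasts. Here every culture lay below both fresh preparations. Slc2a4 to Slc2a1 was 0.174 and 0.182 in MGT+shPtbp1 cells, 0.137 and 0.145 in MGT+shNT cells, 0.161 and 0.146 in MGT cells, 0.106 and 0.112 in control-vector cells, 0.648 and 0.640 in fresh cardiomyocytes and 0.366 and 0.344 in fresh fibroblasts. The ratios are a description and were not tested.

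**Figure D5:**
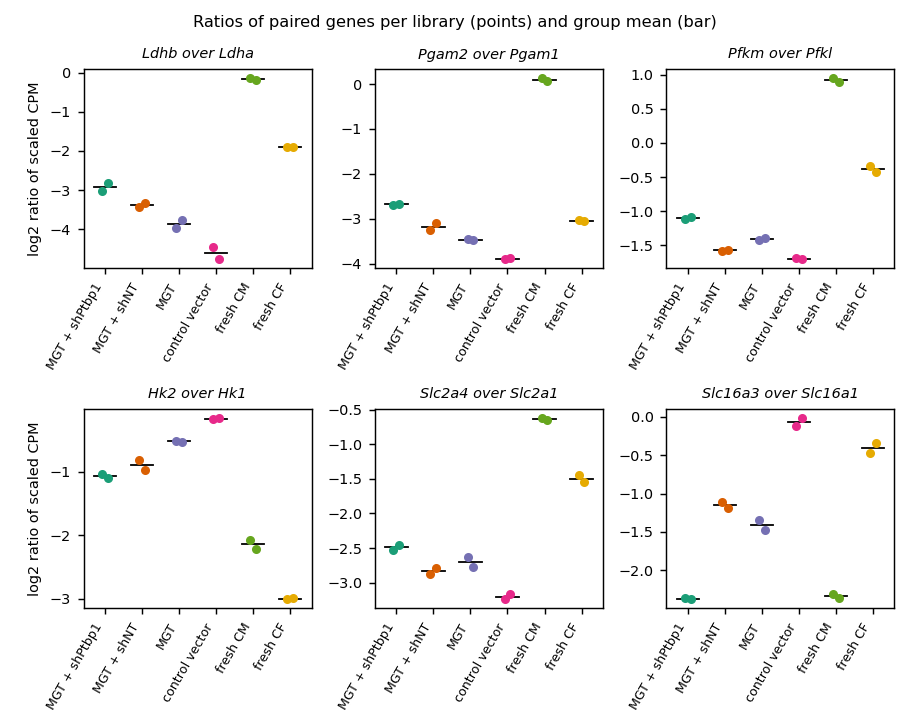
Points give the log2 ratio of scaled CPM of 2 genes in each library and bars the group mean, for 6 pairs of genes in the 6 groups. On the linear scale the ratio of Slc16a3 to Slc16a1 is 0.194 and 0.192 in MGT+shPtbp1 cells and 0.464 and 0.440 in MGT+shNT cells.

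The other genes around the pathway were counted in lists chosen by function, and no list was tested as a set. Of all genes, 35.2% were higher and 41.7% lower in fresh cardiomyocytes than in fresh fibroblasts. For control vector against fresh fibroblasts these shares were 43.5% and 43.4%. They were 17.9% and 17.7% for MGT against control vector, and 16.7% and 18.1% for MGT+shPtbp1 against MGT+shNT. Every list count below stands beside these shares. Of 10 tested genes of mitochondrial pyruvate entry and pyruvate dehydrogenase that are not members, 8 were higher and 2 lower in fresh cardiomyocytes than in fresh fibroblasts (median log2 fold change 1.06), led by Pdk4 (2.94, the kinase induced by fatty acids and fasting) and the pyruvate carrier subunits Mpc2 (1.61) and Mpc1 (1.31). Pdk4 had 15.4 and 16.9 in MGT+shPtbp1 cells, 17.3 and 16.5 in MGT+shNT cells, 12.3 and 11.6 in MGT cells, 6.79 and 6.43 in control-vector cells, 186 and 179.8 in fresh cardiomyocytes, and 23.8 and 22.8 in fresh fibroblasts, and the control-vector libraries were the lowest. In MGT cells 4 of the 10 were higher than in control-vector cells and none lower (median 0.088), with Pdk4 at 0.81 and Pdhx, the complex component that anchors the third enzyme, at 0.59. With shPtbp1 against MGT+shNT 4 were higher and 1 lower (median 0.071).

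Glycogen genes showed 9 of 14 higher and 2 lower in fresh cardiomyocytes than in fresh fibroblasts (median 0.58), with Ppp1r3a, a muscle subunit that targets a phosphatase to glycogen, at 3.90 and the muscle phosphorylase Pygm at 1.97. MGT cells had 6 higher and 1 lower than control-vector cells (median 0.089), with Ppp1r3c at 1.43 ± 0.046 (adjusted p = 6.29e-14) and Pygm at 0.83. Glycolysis also feeds serine synthesis, and in control-vector cells 4 of 5 genes of that branch were higher and none lower than in fresh fibroblasts, with a median of 1.37. Phgdh, its first enzyme, had 268 and 283 in control-vector cells and 24.8 and 24.8 in fresh fibroblasts, and MGT cells had 3 of the 5 lower than control-vector cells, Phgdh among them at -0.59 (median -0.39).

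In the pentose phosphate pathway 6 of 7 genes were higher and 1 lower in control-vector cells than in fresh fibroblasts (median 0.87). With shPtbp1 against MGT+shNT 1 was higher and 3 lower (median 0.022), led by the transketolase Tkt (-0.44; 134 and 134 in MGT+shPtbp1 cells, 183 and 181 in MGT+shNT cells). Of 16 hypoxia-response genes that are not glycolytic, 11 were higher and 2 lower in fresh cardiomyocytes than in fresh fibroblasts (median 0.28), and 8 higher and 4 lower in control-vector cells than in fresh fibroblasts (median 0.28). In MGT against control-vector cells 5 were higher and 5 lower (median -0.014), and with shPtbp1 against MGT+shNT 4 were higher and 5 lower (median 0.033). Further transporters and upper enzymes had 5 of 12 higher and 2 lower in fresh cardiomyocytes than in fresh fibroblasts, and none higher and 1, Slc2a6, lower in MGT than in control-vector cells. Of 7 further genes around lactate, none was called in MGT against control-vector cells and 1, Gpd2, was higher with shPtbp1 against MGT+shNT, at 0.19. Bsg, the chaperone that carries the lactate transporters to the membrane, was higher in fresh cardiomyocytes than in fresh fibroblasts by 0.61 and in control-vector cells than in fresh fibroblasts by 0.90.

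Tpi1, Gapdh, Gpi1, Aldoa, Pfkp, Pfkm, Pfkfb1, Pfkfb2 and Pdha1 overlap a gene on the opposite strand, by annotated gene span with introns included. Whether reads were counted by strand is unknown here, so reads of such partners cannot be told apart. Slc2a1, Hk1, Hk2, Pdk2 and Pfkfb3 likewise have an annotated antisense transcript. Pfkfb2, Pfkfb3, Pfkm, Pkm, Slc2a1, Slc2a3 and Slc16a1 overlap an annotated gene on their own strand, among them a protein-coding gene at Pfkfb2 and a processed pseudogene at Slc2a3, and strand would not separate reads where exons overlap.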

How the data were processed

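The deposited table holds CPM per gene for 12 libraries (6 groups of 2). The submitters' processing notes name FastQC, TopHat2 2.1.0, HTSeq 0.6.1p1 and the build mm10. Annotation, strand setting and handling of multiply mapping reads: not given in the sources used here. The CPM values deposited by the authors sum to 1000000 per library, and 100% of them were whole multiples of 1 read, to within 0.1 reads, which gave the assigned reads of each library.

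The tests covered the 13977 genes that reached 1 CPM in 2 or more libraries. Each library's CPM was rescaled by its median ratio to the other libraries (scaled CPM), over those of these genes with reads in all 12 libraries. The main test was limma 3.58.1 (R 4.3.3) on log2(scaled CPM + 0.5), with 6 group means estimated together from the 12 libraries, leaving 6 residual degrees of freedom, a trended prior, and Benjamini-Hochberg adjustment over all genes within each of 6 comparisons at a threshold of 0.05. Fold changes are on the log2(value + 0.5) scale, which understates those of low genes. Alternatives were edgeR 4.0.16 quasi-likelihood on the recovered reads, other scalings, pseudocounts, filters and subsets of libraries, a replicate block, and each library left out. On simulated counts the test called all but the smallest known changes, some of which it missed. The share of false calls stayed under the threshold in each comparison except that of the fresh cells, where it exceeded it. The simulation gave every gene the same dispersion and changed few genes, equally many up and down. It therefore does not give the error rate of the real comparisons, where far more genes were called. Levels per kilobase use the union of GENCODE exons, which can be longer than the transcript expressed. In the table, 27 rows carry a number for a name and were kept. All 137 genes of the pathway and marker lists had a row, 3 of them under an older symbol.

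The members, lists and tests were chosen with earlier results of these data known. Values in every library are given for up to 6 called members with the largest change in each comparison and for Pkm, Ldha, Ldhb, Slc2a1, Slc2a4, Hk1 and Hk2. Up to 4 called genes of each further list, with Pdk4 and Ptbp1, could be named.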

Additional observations from a re-analysis of the deposited data

How the results depend on the processing

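The counts of members called in each direction stayed within 1.5 times their value under every alternative except when a library was left out. With each library left out in turn, the count of lower members in MGT+shPtbp1 against MGT+shNT ran from 6 to 10 (main count 12). In MGT+shNT against MGT that of higher members ran from 3 to 6 (main count 7) and that of lower members from 8 to 11 (main count 13). Calls over all genes ran from 3355 to 4446 (main count 4870) in the former comparison and from 4833 to 5108 (main count 6241) in the latter. A call counted as kept when it held in every alternative that tested the gene. Aldoc and Pfkfb1 were not tested with the filter at 5 CPM. Kept were 28 of 29 calls for fresh cardiomyocytes against fresh fibroblasts and 27 of 30 for control vector against fresh fibroblasts. In MGT against control vector 17 of 20 were kept, and in MGT+shPtbp1 against MGT+shNT 11 of 19. The counts were 10 of 20 for MGT+shNT against MGT and 19 of 25 for MGT+shPtbp1 against MGT. The same share was not computed for all genes.

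No called member changed direction. Values below the threshold that changed sign were those of Pkm in MGT against control vector (-0.088 with quantile normalization), of Hk1 in MGT+shPtbp1 against MGT+shNT (0.014 with quantile normalization, 0.0041 with upper-quartile scaling, 0.0011 without MGT+shNT replicate 2 and 0.0014 without MGT+shPtbp1 replicate 2, with a range of -0.0083 to 0.0014 over the left-out libraries) and of Slc2a4 (-0.055 to 0.020 over the left-out libraries in the same comparison, and -0.063 without library factors and -0.051 to 0.14 over the left-out libraries in control vector against fresh fibroblasts). Ptbp1 itself did so in MGT against control vector (-0.0021 with quantile normalization). The median of all genes in control vector against fresh fibroblasts was 0.00, but -0.10 without library factors and 0.11 with quantile normalization. The causes were not tested.

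Replicate numbers are shared by the labels of all groups. Same-numbered libraries deviated together with a correlation of -0.027 to 0.16, and 2 pairs per comparison do not show that numbers mark a pairing. With a replicate block, 22 members were higher and 7 lower in control vector against fresh fibroblasts (Pfkfb4 lost) and 6 higher and 13 lower in MGT+shNT against MGT (Slc16a3 lost). The block changed no other member's call. Deep libraries keep counting error small, and the 2 libraries per group limit the tests.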
